A study of Mus musculus with 6 samples.

Results

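MYC network genes were examined in mouse two-cell embryos, and 10 of them were taken from the 53023 genes of the expression table. Their rows were found by gene symbol, and all 10 have a row. They are the MYC paralogs Myc, Mycn and Mycl, their partner Max, the antagonists Mxd1, Mxd3, Mxd4, Mxi1 and Mnt, and the related partner Mlx. RNA-seq was performed on ICR embryos at 28 h post insemination (hpi) in 3 groups of 2 libraries, and each library was a pool of 5 embryos. Non-injection embryos received nothing. PIASy-WT embryos received mRNA for wild-type PIASy, an E3 ligase for the small protein SUMO, and PIASy-Mut embryos received mRNA for the C335F form, whose change lies in the RING finger domain needed for SUMO ligase activity. The labels give both mRNAs an HA tag and an amount of 100 ng/µl, injected between 1.5 and 3 hpi, and fluorescent embryos were kept at 9 hpi. The non-injection embryos were not injected with any control mRNA, so the PIASy-Mut group is the comparison that shares the injection. All groups share in vitro culture, and nothing in the labels says whether the 2 pools of a group came from separate experiments, so the spread between them may be technical.

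MYC proteins are transcription factors of the basic helix-loop-helix leucine zipper class that bind DNA only as a dimer with MAX, at a sequence called the E-box. MXD proteins, MXI1 and MNT compete for MAX, bind the same E-box and recruit the SIN3 corepressor, so the balance of these dimers sets the output of shared targets. MYC is best known for driving growth genes, among them genes for ribosome synthesis, nucleotide synthesis and RNA polymerase I. MLX pairs with the glucose-sensing proteins MLXIP (MondoA) and MLXIPL (ChREBP) and with some MXD proteins, which links this network to metabolism. In the mouse embryo, transcripts present at this stage are a mixture of stored maternal mRNA and mRNA made after zygotic genome activation.

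The E-box that these dimers recognise, CACGTG on either strand, was looked for in the window from 250 bases before to 50 bases after each RefSeq transcription start (GRCm38.p6). A window was found for 9 of the 10 genes by symbol, and Myc had no entry. The E-box was present in the windows of 4 of these 9 genes, against 8.09% of the 27025 genes with a window. A match describes the letters only. The 4 matches are shown with 10 bases on each side and the E-box in capitals, because they show which network genes carry the motif of their own family near their start.
Max: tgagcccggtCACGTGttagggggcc
Mlx: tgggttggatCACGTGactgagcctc
Mnt: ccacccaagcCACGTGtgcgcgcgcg
Mxd4: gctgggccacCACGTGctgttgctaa
The E-box of Max began 3 bases before the start site, and those of Mlx, Mnt and Mxd4 began 40, 123 and 219 bases before it. The full windows of Max and Mxd1, the members with the most fragments, are given to let a reader compare a window with the motif and one without it. The window of Max is chr12:76962199-76962498 on the minus strand, and that of Mxd1 is chr6:86669110-86669409 on the minus strand.
Max: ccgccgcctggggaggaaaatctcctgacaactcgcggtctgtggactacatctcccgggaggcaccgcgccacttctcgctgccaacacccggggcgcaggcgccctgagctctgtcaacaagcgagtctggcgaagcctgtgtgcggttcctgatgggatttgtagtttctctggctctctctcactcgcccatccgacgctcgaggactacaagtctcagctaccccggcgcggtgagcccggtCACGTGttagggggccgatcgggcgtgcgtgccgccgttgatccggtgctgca
Mxd1: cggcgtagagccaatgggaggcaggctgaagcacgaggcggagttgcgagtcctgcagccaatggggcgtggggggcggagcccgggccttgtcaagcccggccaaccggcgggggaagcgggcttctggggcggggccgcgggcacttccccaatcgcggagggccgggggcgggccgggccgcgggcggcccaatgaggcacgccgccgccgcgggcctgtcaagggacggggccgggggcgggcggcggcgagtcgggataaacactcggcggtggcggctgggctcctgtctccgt

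Values are FPKM, fragments scaled to gene length and to library depth, so levels of different genes can be set side by side. They are shares of each library of pooled embryos, so fewer cells and less RNA per cell cannot be told apart. FPKM multiplied by gene length gave whole fragments, and the libraries held from 871663 to 1363928 fragments. A gene with at most 3 fragments in a library was not told from 0. The FPKM of Pias4, the gene for PIASy, was 2.98 and 3.59 without injection and lay between 579 and 862 in the injected groups, so the injected mRNA was found where the labels place it. Markers of the two-cell stage summed to an FPKM from 600 to 1341 in every library, and at most 3 of 12 cumulus cell markers exceeded 3 fragments in any library, with Foxl2, Inha and Inhba at 0 throughout. Only 4 network genes, Max, Mxd1, Mxd4 and Mlx, had more than 3 fragments in all 6 libraries.

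In non-injection embryos Max and Mxd1 had the highest levels of the 10 genes, above every MYC gene. The mean FPKM was 13.3 ± 0.0187 for Max and 5.74 ± 1.96 for Mxd1 (SD, n = 2), then 3.02 for Mlx, 2.20 for Mxd4, 1.19 for Mxi1, 1.02 for Mycn, 1.00 for Myc and 0.806 for Mxd3. Mycl and Mnt had 0 fragments in both non-injection libraries. For Mycl the exact Poisson 95% interval in the shallower of these libraries reaches up to an FPKM of 0.808. The first 5 of this order did not overlap between neighbours, whereas Mxi1 overlapped Mycn, Mycn overlapped Myc, and Myc overlapped Mxd3. Max, Mxd1, Mlx and Mxd4 kept these places in all 3 groups, although Mlx and Mxd4 overlapped in PIASy-Mut and in PIASy-WT. The SD over 2 libraries carries little information by itself, and the counting error of Max alone is larger than its SD here.

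**Figure D1:**
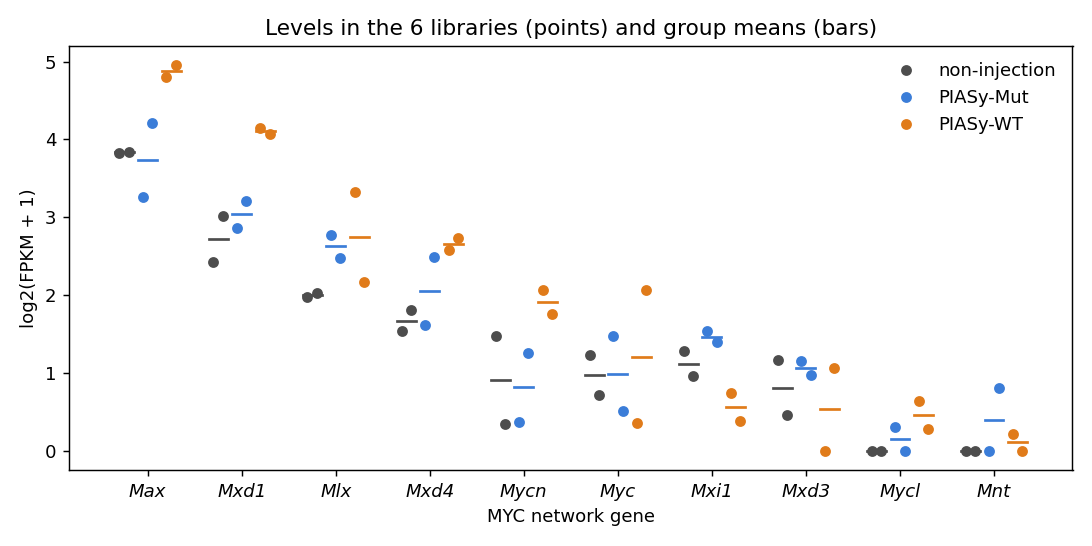
Level of the 10 MYC network genes on the log2(FPKM + 1) scale, ordered by their mean over all libraries. Each point is 1 of the 6 libraries and each bar the mean of the 2 libraries of a group. For Max, Mxd1, Mxd4 and Mycn both PIASy-WT points lie above the other 4, and for Mxi1 both lie below.

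The limma test was run on log2(FPKM + 1) for the 16100 genes that reached an FPKM of 1 in 2 or more libraries, with Benjamini-Hochberg adjustment across all 16100. The members that reached this level numbered 8, and Mycl and Mnt did not. When PIASy-WT was set against non-injection, 0 members had a limma adjusted P of at most 0.05, while 6.8% of all genes tested passed. When it was set against PIASy-Mut, 0 members and 6.83% of all genes passed. The share of all genes called higher was 1.03% and 0.82%. With a further limit of 2 on the size of the log2 fold change it was 4.42% and 4.57% in either direction, again with 0 members. At an unadjusted P under 0.05 by limma, 2 of the 8 were found in each of these comparisons, Max and Mxd1 both times, against 28.2% and 27.7% of all genes. These comparisons share the PIASy-WT libraries. Between PIASy-Mut and non-injection limma called 0 members, and 0 members reached an unadjusted P of 0.05, against 0.00621% and 4.46% of all genes, and the log2 fold changes of the 8 members lay between -0.09 and 0.62. When the recovered fragments were tested with voom in limma instead, over genes reaching 10 fragments in 2 or more libraries, 3 of the 5 members that entered passed against non-injection (Max, Mxd1 and Mxd4) and 2 of 5 passed against PIASy-Mut (Max and Mxd1), while 0 passed between PIASy-Mut and non-injection. Voom also called far more of all genes, 27.5% and 24.7% of those it tested in the comparisons with PIASy-WT (8.51% and 5.94% as higher) and 0.0196% in the comparison without it.

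Max encodes the shared partner of the MYC proteins and their antagonists (ENSMUSG00000059436.13, chromosome 12 of mm10, from 76937269 to 76962201, minus strand). Its FPKM was 13.2 and 13.3 (non-injection), 8.62 and 17.5 (PIASy-Mut) and 26.8 and 30.0 (PIASy-WT). Both PIASy-WT libraries lay above the other 4, and the PIASy-Mut libraries lay on either side of non-injection. On the log2 scale the difference of PIASy-WT was 1.04 against non-injection (standard error 0.37, 95% interval 0.14 to 1.94, adjusted P=0.134 by limma), whereas the value against PIASy-Mut was 1.14 (95% interval 0.24 to 2.04, adjusted P=0.113 by limma). These intervals do not hold 0, but the values did not pass across all genes. Voom gave 1.09 and 1.22 with an adjusted P of 0.0364 and 0.0306. Leaving out PIASy-Mut 2, the library with the higher value in its group, raised the difference from PIASy-Mut to 1.61 (adjusted P=0.0271 by limma), and leaving out PIASy-Mut 1 lowered it to 0.66.

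Mxd1 encodes MAD1, the founding antagonist of MYC, which is linked to cell cycle exit and differentiation (ENSMUSG00000001156.9, chromosome 6, from 86647042 to 86669161, minus strand). Its FPKM was 4.35 and 7.13 (non-injection), 6.30 and 8.27 (PIASy-Mut) and 16.6 and 15.7 (PIASy-WT). The PIASy-WT libraries stood well apart from the other 4, whose highest value was 8.27. As a log2 fold change, PIASy-WT differed by 1.38 against non-injection (standard error 0.34, 95% interval 0.55 to 2.22, adjusted P=0.0657 by limma), whereas the value against PIASy-Mut was 1.06 (95% interval 0.23 to 1.90, adjusted P=0.111 by limma). This was the member closest to the threshold. Against non-injection it passed in 3 of 16 alternatives, which were voom (adjusted P=0.00645), quantile normalization (adjusted P=0.0482) and a stricter filter on low values, and its adjusted P ranged up to 0.287. These 3 alternatives called 2808 of 10193, 932 of 16100 and 1773 of 8282 genes, in that order. Against PIASy-Mut only voom called Mxd1 (adjusted P=0.0276).

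Mxd4 encodes a further MXD repressor (ENSMUSG00000037235.13, chromosome 5, from 34173883 to 34187720, minus strand). Its FPKM was 1.90 and 2.50 (non-injection), 2.06 and 4.60 (PIASy-Mut) and 4.98 and 5.64 (PIASy-WT). The PIASy-WT libraries were the highest, though PIASy-Mut 2 came close to them. In limma the log2 difference was 0.98 against non-injection (adjusted P=0.198 by limma), whereas the value against PIASy-Mut was 0.61 (95% interval -0.44 to 1.65, adjusted P=0.41 by limma). The latter was 0.17 without PIASy-Mut 1 and 1.04 without PIASy-Mut 2.

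The other antagonists had few fragments. Mxi1, which also recruits SIN3, was the only member with both PIASy-WT libraries below the other 4. Its FPKM was 1.44 and 0.944 (non-injection), 1.90 and 1.63 (PIASy-Mut) and 0.671 and 0.310 (PIASy-WT), from 5 and 2 fragments in the last 2 libraries. Limma placed PIASy-WT at -0.56 on the log2 scale relative to non-injection (95% interval -1.53 to 0.41) and -0.90 against PIASy-Mut (95% interval -1.87 to 0.07, adjusted P=0.206 by limma). These Mxi1 values were -1.17 and -1.73 with a pseudocount of 0.1, -0.17 and -0.30 with a pseudocount of 5, and -1.21 and -1.77 by voom, and none passed. Mxd3, an MXD family member found in dividing cells, had at most 4 fragments and an FPKM of at most 1.24 in any library, and its groups overlapped (log2 fold change -0.27 and -0.53 for PIASy-WT relative to non-injection and PIASy-Mut). It shares 105 exon bases with Prelid1 on the opposite strand. Mnt, the most widely expressed antagonist in adult tissues, had 3 fragments in PIASy-Mut 2, 1 in PIASy-WT 1 and 0 in the other 4 libraries, which is at or under the limit in every library, so its groups were not compared.

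Across the whole table, both PIASy-WT libraries lay above the other 4 for 19.9% of the genes tested and below them for 24.4%. Among the 10 network genes these numbers were 4 and 1, and 5 overlapped. With a background this high, single separations of this kind are common in these libraries.

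Among the MYC paralogs, Myc itself was near the limit of detection. Myc (ENSMUSG00000022346.15, chromosome 15, from 61985391 to 61990374, plus strand) had fragment counts of 5 and 2 (non-injection), 5 and 1 (PIASy-Mut) and 1 and 10 (PIASy-WT). The corresponding FPKM was 1.35 and 0.651, 1.78 and 0.422, and 0.278 and 3.20. The lowest and the highest of the 6 values both came from PIASy-WT, with exact Poisson 95% intervals of 0.00703 to 1.55 and 1.54 to 5.89, which cover counting error only. On the log2 scale the difference of PIASy-WT was 0.23 against non-injection (95% interval -1.45 to 1.92, adjusted P=0.853 by limma). The value against PIASy-Mut was 0.22 (95% interval -1.46 to 1.90). A change of more than 2-fold in FPKM + 1 in either direction was thus within the error. The mean FPKM of Myc was 1.00 in non-injection, so a complete loss of Myc was also within the first interval. Without PIASy-WT 2 the log2 differences became -0.62 and -0.64.

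Mycn (ENSMUSG00000037169.15, chromosome 12, from 12936093 to 12941914, minus strand), the paralog known from neural and embryonic tissues, had fragment counts of 8 and 1 (non-injection), 1 and 4 (PIASy-Mut) and 14 and 9 (PIASy-WT). The FPKM was 1.78 and 0.268, 0.294 and 1.39, and 3.21 and 2.38, so both PIASy-WT libraries were above the rest. As a log2 fold change, PIASy-WT differed by 1.00 against non-injection (95% interval -0.36 to 2.37, adjusted P=0.293 by limma), whereas the value against PIASy-Mut was 1.10 (95% interval -0.27 to 2.46, adjusted P=0.265 by limma). The Mycn values moved to 1.78 and 1.90 with a pseudocount of 0.1 and to 0.38 and 0.42 with a pseudocount of 5, and the value against non-injection was 1.57 without non-injection 1 and 0.44 without non-injection 2. None of these passed. Mycl, the third paralog, had at most 3 fragments in any library, the highest in PIASy-WT 1, and is not compared.

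**Figure D2:**
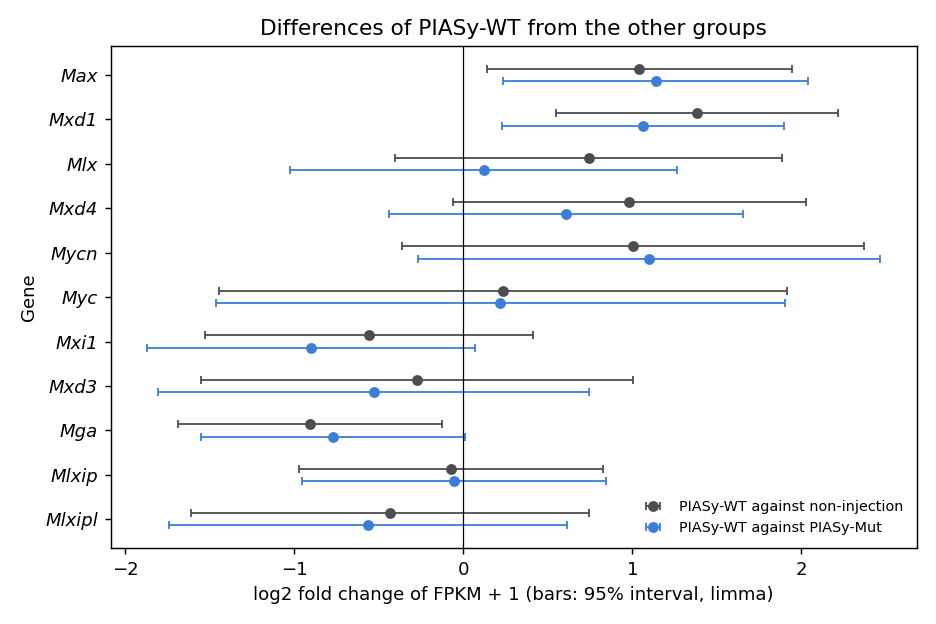
Log2 fold change of FPKM + 1 in PIASy-WT against non-injection (grey) and against PIASy-Mut (blue) for the 8 network genes tested and for Mga, Mlxip and Mlxipl, with 95% intervals from limma. The intervals of Max and Mxd1 lie above 0 in both comparisons, that of Mga lies below 0 against non-injection only, and the interval of Myc spans more than 3 units.

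The levels were also summed by role within each library. The MYC paralogs together had an FPKM of 3.13 and 0.919 (non-injection), 2.32 and 1.81 (PIASy-Mut) and 4.04 and 5.79 (PIASy-WT). The 5 antagonists together had 8.93 and 10.9, 11.5 and 16.2, and 22.5 and 22.8. The MYC paralog sums rest on 13 and 3, 7 and 5, and 18 and 20 fragments, and the antagonist sums on 79 and 88, 78 and 98, and 218 and 188. The antagonist sum was the larger in every library. The log2 ratio of MYC paralogs to antagonists was -1.51 and -3.57 (non-injection), -2.31 and -3.16 (PIASy-Mut) and -2.47 and -1.98 (PIASy-WT). The value of -3.57 rests on the 3 MYC paralog fragments of non-injection 2, which were not told from 0, so no order of the groups is read from these ratios. Both sums and Max were highest in the PIASy-WT libraries. Max equalled between 0.751 and 1.48 times the sum of the antagonists. Mxd1 made up 48.8% to 65.1% of the antagonist sum in the 4 libraries without PIASy-WT and 74.1% and 69.1% in PIASy-WT. No test was made on these sums, since their members were chosen with results of these data known.

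**Figure D3:**
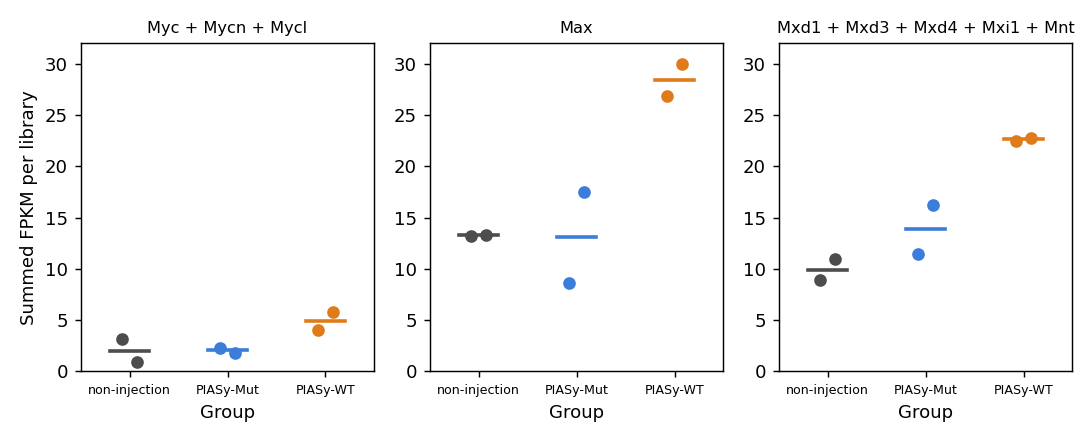
FPKM summed per library over the MYC paralogs, for Max, and over the 5 antagonists, in the 3 groups; points are libraries and bars are means of 2. The antagonist sum is 22.5 and 22.8 in PIASy-WT and at most 16.2 in the other libraries.

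Mlx (ENSMUSG00000017801.15, chromosome 11, from 101087277 to 101092207, plus strand) was measured at an FPKM of 2.93 and 3.10 (non-injection), 5.82 and 4.59 (PIASy-Mut) and 9.06 and 3.48 (PIASy-WT). The PIASy-WT libraries lay on either side of PIASy-Mut, and the log2 difference from non-injection was 0.74 (adjusted P=0.35 by limma), whereas the value against PIASy-Mut was 0.12 (95% interval -1.02 to 1.27). The value against non-injection was 0.16 without PIASy-WT 1 and 1.33 without PIASy-WT 2. Of its exon bases, 385, or 19.3%, are shared with Psmc3ip on the opposite strand, whose FPKM was from 55.5 to 184 outside PIASy-WT and 18.3 and 5.26 in PIASy-WT. Whether counting used strand is not given in the sources used here, so fragments in these bases cannot be assigned to Mlx with certainty.

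Of the network genes outside the 10, Mga, a MAX partner found in the repressive complex PRC1.6, had an FPKM of 7.84 and 7.09 (non-injection), 7.14 and 6.28 (PIASy-Mut) and 3.10 and 3.97 (PIASy-WT). Its PIASy-WT libraries lay below the other 4. In limma the log2 difference was -0.91 against non-injection (95% interval -1.69 to -0.12, adjusted P=0.134 by limma), whereas the value against PIASy-Mut was -0.77 (adjusted P=0.186 by limma), and voom called it against non-injection (adjusted P=0.023). Mlxip and Mlxipl, the partners of MLX, had log2 fold changes of -0.07 and -0.43 against non-injection, and -0.05 and -0.57 against PIASy-Mut, all with intervals that hold 0.

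The proteins that MYC and MXD dimers recruit were described by lists. Where a gene or list has a pair of log2 values below, the first is PIASy-WT against non-injection and the second is PIASy-WT against PIASy-Mut. Of 16 cofactors of MYC tested, limma called 5 as lower in the comparison of PIASy-WT with non-injection, 3 as lower in that with PIASy-Mut, and 0 as higher in either. The share of all genes lower was 5.76% and 6.01% in these comparisons, and the median log2 fold change was -0.56 and -0.86 in the list against 0.01 and -0.03 over all genes. Paf1, a subunit of the PAF1 elongation complex, had an FPKM of 27.1 and 27.8 (non-injection), 49.3 and 26.0 (PIASy-Mut) and 4.61 and 4.30 (PIASy-WT), with log2 fold changes of -2.38 and -2.76. Ruvbl1, an ATPase of chromatin remodelling complexes, had log2 fold changes of -1.64 and -1.82. Cdk9, the kinase of P-TEFb, and Actl6a, an actin-like subunit of remodelling complexes, had log2 fold changes of -1.77 and -1.30 (Cdk9) and -1.73 and -1.18 (Actl6a), which passed against non-injection and had an adjusted P of 0.0907 and 0.059 by limma against PIASy-Mut.

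Of 12 corepressor genes of the SIN3 and NCoR complexes, 2 were lower in both comparisons and 10 did not pass, where 5.76% and 6.01% of all genes were lower. They were Hdac1, a histone deacetylase, with log2 fold changes of -1.50 and -1.51, and Sap30, a SIN3 subunit, with -1.40 and -1.31. The median of the list was -0.19 and -0.12. For the 13 tested genes that act on MYC protein stability the median was -0.17 and -0.10.

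Of the genes known as induced targets of MYC, 47 were tested. In PIASy-WT limma called 13 as lower relative to non-injection, 14 as lower relative to PIASy-Mut, and 0 as higher in either comparison. Calls over all genes were also mostly lower, with 5.76% lower and 1.03% higher in the first comparison and 6.01% lower and 0.82% higher in the second. The median log2 fold change of the list was -1.42 and -1.41, against 0.01 and -0.03 over all genes. Among those that passed, the largest changes were those of Nolc1, a nucleolar chaperone, Shmt1, an enzyme of one-carbon metabolism, Ppat, which catalyses the first committed step of purine synthesis, and Nop2, a ribosomal RNA methyltransferase. The FPKM of Ppat was 135 and 121 (non-injection), 170 and 108 (PIASy-Mut) and 25.8 and 17.3 (PIASy-WT), with log2 fold changes of -2.54 and -2.62. The log2 fold changes were -2.59 and -2.91 for Nolc1, -2.72 and -2.83 for Shmt1 and -2.52 and -2.61 for Nop2. A promoter window was found for 42 of the 50 listed targets, and 10 of these genes, or 23.8%, hold CACGTG, against 8.09% of all genes with a window. Between PIASy-Mut and non-injection 0 of the 47 passed by limma and 0 by voom, with a median of 0.09.

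Among genes repressed by MYC, 5 of 10 were tested, and Id2, which encodes an inhibitor of helix-loop-helix proteins, was higher in both comparisons, where 1.03% and 0.82% of all genes were higher. The other 4 did not pass. Cdkn1c and Cdkn1a, inhibitors of cyclin-dependent kinases, had values above 0 (1.33 and 1.34, and 0.72 and 0.27), and the stress genes Gadd45a (-1.16 and -1.27) and Gadd45b (-0.81 and -0.76) had values below 0. The 4 are named because the list is short, after their values were seen. For Id2 the FPKM was 39.1 and 25.0 (non-injection), 26.6 and 33.9 (PIASy-Mut) and 110.5 and 106 (PIASy-WT), with log2 fold changes of 1.76 and 1.81. Of 6 tested targets of the MLX partners, such as Txnip, 0 passed by limma in either comparison, and voom called 1, relative to PIASy-Mut only.

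The ribosome genes that the network is known to regulate were described in the same way, and the shares of all genes called lower were again 5.76% and 6.01%. Of 12 genes of the RNA polymerase I machinery, which include Polr1b of the list of induced targets, 5 were lower relative to non-injection and 4 relative to PIASy-Mut, 7 and 8 did not pass, and the medians were -1.39 and -1.30. Polr1c, a polymerase subunit, had log2 fold changes of -2.14 and -1.94, and Polr1e, another subunit, had -3.73 and -3.63. Taf1b, a part of the promoter selectivity factor SL1, had -2.72 and -2.74, and Ttf1, a termination factor, had -2.36 and -2.08. Of 82 ribosomal protein genes, 34 were lower relative to non-injection and 37 relative to PIASy-Mut, 0 were higher, and 48 and 45 did not pass. The medians were -1.78 and -1.83, and 2 of the 82 had a value above 0 in each comparison. Among those that passed, Rps27, Rpl41 and Rps25 had log2 fold changes of -4.38, -3.72 and -2.93 against non-injection. Because ribosomal protein genes have many processed copies in the genome and reads with several matches were dropped, these levels are uncertain.

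**Figure D4:**
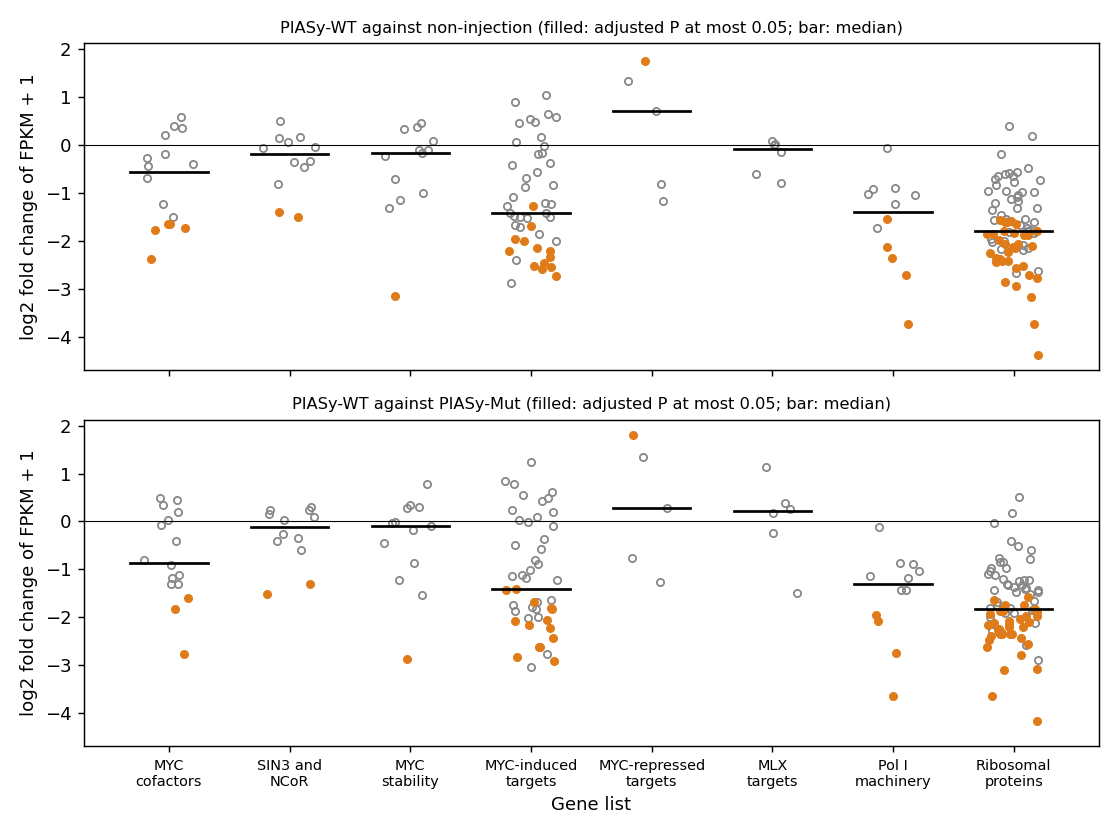
Log2 fold change of FPKM + 1 for each tested gene of 8 lists in PIASy-WT against non-injection (top) and against PIASy-Mut (bottom). Filled points had a limma adjusted P of at most 0.05, and bars are medians. The lists of induced targets, RNA polymerase I machinery and ribosomal proteins have medians between -1.30 and -1.83, while those of the corepressors and of genes acting on MYC stability have medians between -0.10 and -0.19.

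These list counts rest on the shared spread of 6 libraries. Without any 1 of the 4 non-injection and PIASy-WT libraries, 0 genes of these lists passed in PIASy-WT against non-injection, and 0 genes of the whole table did. Against PIASy-Mut 0 passed when only the 4 libraries compared entered the fit, or without any 1 library other than PIASy-Mut 2, whereas voom raised the induced targets to 25 in both comparisons and the ribosomal proteins to 60 and 59. Voom called 27.5% and 24.7% of all genes it tested in these comparisons. Against non-injection the cofactors, corepressors, repressed targets and RNA polymerase I genes also had 0 calls with no filter and with eBayes without trend. Against PIASy-Mut the corepressors and RNA polymerase I genes had 0 calls in 9 of 16 alternatives, which include those settings and quantile normalization, and the repressed targets in 8 of 16. In the same libraries the 12 oocyte markers, of which only Zp3 passed the test and was lower, summed to an FPKM of 3244 and 2802 (non-injection), 3124 and 4486 (PIASy-Mut) and 5006 and 4268 (PIASy-WT). Markers of the two-cell stage summed to 838 and 600 in PIASy-WT and to at least 1167 in the other 4 libraries. Of these, Tcstv3 was called lower relative to PIASy-Mut (log2 fold change -1.39, adjusted P=0.0499 by limma), a call kept in 3 of 16 alternatives, and its value relative to non-injection was -1.14 (adjusted P=0.0731 by limma). The cumulus marker Amhr2, with at most 22 fragments in a library, was lower relative to non-injection (log2 fold change -1.86), a call kept in 8 of 16 alternatives. The part of these shifts in the levels of Max and Mxd1 was not tested.

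The pattern of Mxd1, the member with the most fragments, was compared with that of 6679 other genes with a mean of at least 20 fragments per library. Likeness was the root mean square difference of log2(FPKM + 1) centred over the 6 libraries. The 3 closest genes were Fam107b, Ildr1 and Prr32, with differences from 0.0911 to 0.099. Ildr1, for example, had an FPKM of 2.39 and 4.12 (non-injection), 3.38 and 5.61 (PIASy-Mut) and 10.7 and 11.1 (PIASy-WT). For Myc the closest were Epg5, Vmn2r94 and Nmrk1, at 0.216 to 0.306, a looser likeness to a profile of at most 10 fragments a library.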

How the data were processed

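RNA was measured in 6 libraries of mouse two-cell embryos, mapped to group and replicate by their titles. Per the methods of the study, the authors trimmed reads with Trim Galore, used STAR for alignment to mm10, kept reads with a single match and assigned them to genes by featureCounts. The deposited values are FPKM for 53023 genes. No spike-in values were used here, so RNA per embryo was not compared. Here FPKM times length was divided by its smallest value above 0 in each library, and 100% of values above 0 were whole within 0.01 fragments. The depth was 871663 to 1363928 fragments.

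Tests used limma 3.58.1 and R 4.3.3 (lmFit, eBayes with a mean-variance trend) on log2(FPKM + 1) of genes reaching an FPKM of 1 in 2 or more libraries, all 6 libraries in 1 fit with 3 residual and 3.12 prior degrees of freedom. The pseudocount of 1 understates changes of low genes. The DESeq2 test of the authors was not run. The deposited values are FPKM, and the recovered fragments were tested with voom instead. A gene passed at an adjusted P of at most 0.05. At the further limit of 2 on the log2 scale, which the authors used, 4.42% and 4.57% of genes passed in PIASy-WT against non-injection and against PIASy-Mut, and 0 members. With 2 libraries a group an exact permutation test cannot give a two-sided P below 0.333. The procedure was tested on simulated data. Members and gene lists were chosen with earlier results of these data known. Named genes are all members, Mga, Mlxip, Mlxipl, up to 4 genes per list that passed in a comparison with PIASy-WT, by size of change, and the 3 genes closest in pattern to Mxd1 and Myc. Some genes that this rule selects are not reported here. Cip2a of the stability list, and Dux and Eif1ad8 of the two-cell markers, had no row by symbol. Of 6 sperm markers at most 1 exceeded 3 fragments in a library. Alternatives were 2 other pseudocounts (0.1 and 5), no filter, a filter at 5, median-of-ratios and quantile scaling, eBayes without trend, fits on the 4 libraries compared, a replicate block, voom, and leaving out each library. Promoter windows are from RefSeq. Python 3.11.15 with pandas 2.3.3 was used.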

Additional observations from a re-analysis of the deposited data

How the results depend on the processing

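The number of members past the test was 0 in all 3 comparisons. Against non-injection it became 1 for PIASy-WT with a filter at an FPKM of 5 (Mxd1), where 1773 of 8282 genes passed. It was 1 under quantile normalization (Mxd1), where 932 of 16100 genes passed. With only the 4 libraries compared it was 1 (Max), and 2293 of 16100 genes passed. With voom it was 3, and 2808 of 10193 genes passed. Against PIASy-Mut the number became 2 with voom, where 2518 of 10193 genes passed. Between PIASy-Mut and non-injection the number stayed at 0 under these settings. The log2 value of Max against non-injection stayed at 1.04 without either PIASy-Mut library, since neither enters that difference. Against PIASy-Mut the value of Max was 1.61 without PIASy-Mut 2. Quantile normalization moved the median of all genes to 0.12 and 0.11 on the log2 scale in the comparisons with PIASy-WT. For the log2 ratio of MYC paralogs to antagonists, which a scaling factor per library cannot move, leaving out 1 library of a group gave from -3.57 (3 MYC paralog fragments) to -1.51 in non-injection, -3.16 to -2.31 in PIASy-Mut and -2.47 to -1.98 in PIASy-WT.

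Of 498 single fold changes of members, Mga, Mlxip and Mlxipl under an alternative, 458 kept direction and side of the threshold, 12 newly passed and 28 changed sign, and none of those that changed sign had passed. Several alternatives cannot move a fold change. These are the filters, eBayes without trend, the fits on 4 libraries, the replicate block, and leaving out a library of the group not compared. The 458 were therefore partly fixed in advance and do not measure robustness. Under another scaling or pseudocount the sign of Mlxip changed in PIASy-WT against non-injection (0.047, quantile) and against PIASy-Mut (0.037, median-of-ratios, and 0.13, quantile). That of Myc changed in PIASy-Mut against non-injection (-0.073 with a pseudocount of 0.1 and -0.012 with median-of-ratios). The other sign changes came from leaving out 1 library. For PIASy-WT against non-injection the values then ranged from -0.62 to 1.09 for Myc, -0.81 to 0.26 for Mxd3 and -0.29 to 0.15 for Mlxip. Against PIASy-Mut they ranged from -0.64 to 1.08 for Myc, -1.07 to 0.0055 for Mxd3, -0.46 to 0.70 for Mlx and -0.27 to 0.17 for Mlxip. For PIASy-Mut against non-injection they ranged from -0.47 to 0.50 for Myc, -0.66 to 0.47 for Mycn, -0.57 to 0.38 for Max, -0.096 to 0.61 for Mxd3, -0.061 to 0.81 for Mxd4, -0.19 to 0.15 for Mlxip and -0.29 to 0.55 for Mlxipl. The cause was not tested.

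Replicate numbers were shared by the groups. The deviations of same-numbered libraries had correlations across genes of 0.00368, 0.0851 and 0.0637, so the numbers were not taken to pair the libraries. With the replicate block the number of members past the test was 0 in all comparisons, and the number of all genes went from 1094 to 808 and from 1100 to 866 in the comparisons with PIASy-WT. With 24 fragments of Myc over 6 libraries, a change of Myc smaller than its interval was not detectable at this depth.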
